A study of Catostomus macrocheilus with 21 samples.

Results

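The 100 probes described here are bright liver probes of the largescale sucker (Catostomus macrocheilus) whose mean level stepped from one collection site to the next along the Columbia River. Of 14758 non-control probes on the array, 7072 were well above background on all 21 arrays, and 5997 of these had an absolute Pearson r under 0.6 with LSS_UF_10838, a probe that varied strongly between fish. When the way from the Skamania mean to the Longview mean is cut into 3 equal parts, the Columbia City mean lay in the central one, called the middle band here, in 655 of the 5997. The 100 with the largest absolute t (difference of the Longview and Skamania means over its standard error, variances unequal) were taken as members. Of these, 54 rose and 46 fell from Skamania to Longview. The members were thus chosen by their measured site means and by the spread at the outer sites. The differences between sites are therefore given as a description. Counts of members called by a fit over all probes are set beside the share of all probes called, and nothing is read from them.

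The series measured RNA of 21 wild fish, with 1 array per fish, in a study of contaminant exposure. All fish were reproductive adults and all samples were liver. The 3 groups were 8 fish from Skamania, 6 from Columbia City and 7 from Longview. No contaminant level, sex or age of a fish was used here. In bulk liver, fewer cells of a type and less RNA per cell cannot be told apart.

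The largescale sucker is a bottom-feeding freshwater fish, which brings it into contact with river sediment. The liver of a fish clears and converts foreign compounds and, in females near spawning, makes the egg yolk proteins. Going downstream, the sites come in the order Skamania, Columbia City and Longview, and the lower sites lie below the city of Portland. The files pair each probe with the name of a sequence from an assembly of sucker reads and not with a gene. No gene role is therefore given to a member, and the tissue label was not checked against liver markers. IDs are printed for 2 rising and 2 falling members. The other members are called by their rank, by absolute t, among the rising or the falling probes.

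Levels are the authors' deposited log2 values, which have the same median, 6.10, on every array. Mean levels over the 21 fish ran from 6.33 to 17.32 (log2) for rising probes and from 5.93 to 16.16 for falling probes. Their median levels, 9.99 and 9.29, were above the 8.82 of the 5997 eligible probes. In all, 57 of the 100 members were above the eligible median, and 23 were in the brightest 10% of the eligible probes.

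Sizes of change ranged widely among the members. The median Longview minus Skamania difference was 0.64 (log2) over the rising probes, a 1.56-fold rise, with a range from 0.15 to 3.95. Over the falling probes the median was -0.77, a 1.70-fold fall, with a range from -1.83 to -0.32. The median over all 5997 eligible probes was 0.01, and their median change in either direction was 1.16-fold. At least 2-fold differences were found in 11 rising and 15 falling members, and 22 rising and 15 falling members differed by less than 1.5-fold. The largest fold and the largest t went to different probes.

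Few members had a large absolute t. An absolute t over 4 was reached by 17 members, and 45 members had one below 3. The last 3 members had t values of -2.45, -2.44 and -2.44, and the next 3 probes, which were left out, had 2.44, 2.44 and -2.44. Members near the end of the list are thus not set apart in t from the probes that follow.

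LSS_UF_19564 had the largest absolute t of all members and led the rising probes. Its level at Skamania ran from 8.72 over a median of 8.87 to 9.84, and at Longview from 9.82 over 10.14 to 10.42. Columbia City fish ran from 8.42 over 9.50 to 10.08. The Longview fish were the highest group, and the highest Skamania fish lay just inside their range. The Columbia City fish were spread over the levels of both other sites, with 2 fish in the middle band and 2 on each side of it. The Skamania mean was 9.07 ± 0.41 (SD, n = 8), the Columbia City mean 9.48 ± 0.59 (SD, n = 6) and the Longview mean 10.15 ± 0.23 (SD, n = 7). The outer means differed by 1.08 with a limma SE of 0.23, or 2.11-fold. Within slides 1, 2 and 3 that difference was 1.10, 0.64 and 1.46.

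LSS_UF_23215, the rising probe of rank 7, had the fewest pairs of fish from different sites out of the site order among the rising members, 16. Its level ran from 10.87 over 11.06 to 11.24 at Skamania, from 11.07 over 11.26 to 11.54 at Columbia City, and upward from 11.27 with a median of 11.48 at Longview, where the mean was 11.56 ± 0.26 (SD, n = 7). The Skamania and Longview ranges did not overlap, and the Columbia City fish bridged them. The rise was small, at 0.50 with an SE of 0.14 (n = 7 and 8), or 1.42-fold. Within slides 1, 2 and 3 it was 0.42, 0.60 and 0.48.

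LSS_UF_17123 led the falling probes and was among the brightest probes of the set. Its level ran from 15.79 over 16.09 to 16.51 at Skamania and from 14.77 over 15.37 to 15.75 at Longview, ranges that did not overlap. At Columbia City it ran from 15.04 over 15.87 to 16.53. No Columbia City fish lay in the middle band: 3 fish were on the Skamania side and 3 on the Longview side. The middle place of the Columbia City mean, 15.78 ± 0.68 (SD, n = 6), thus came from fish on either side of it. The means at Skamania and Longview were 16.15 ± 0.22 (SD, n = 8) and 15.31 ± 0.33 (SD, n = 7), a difference of -0.83 with an SE of 0.23. Within slides 1, 2 and 3 the difference was -0.64, -0.90 and -0.75. Falling rank 2 had the same split of 3 and 3 fish and followed LSS_UF_17123 with r = 0.97 over the 21 fish after site means were removed.

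LSS_UF_23102, the falling probe of rank 6, had the fewest pairs of fish out of the site order among the falling members, also 16. Its level ran from 8.41 over 8.93 to 9.83 at Skamania, from 7.95 over 8.37 to 8.91 at Columbia City, and from 6.83 over 7.85 to 8.37 at Longview. The outer ranges did not overlap, and 3 of the 6 Columbia City fish lay in the middle band. The fall was -1.16 with an SE of 0.25 (n = 7 and 8), or 2.23-fold, and it was -0.96, -1.10 and -1.08 within slides 1, 2 and 3.

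The rule fixed the order of the site means in every member, and 3 other leading members had more spread around them. Rising rank 6 had a Skamania mean of 7.06 ± 1.25 (SD, n = 8), a Columbia City mean of 8.66 ± 1.80 (SD, n = 6) and a Longview mean of 9.56 ± 0.73 (SD, n = 7), a 5.66-fold difference between the outer sites. Rising rank 8 rose 5.28-fold, from 6.80 ± 1.33 (SD, n = 8) to 9.20 ± 0.85 (SD, n = 7). Falling rank 3 fell 2.80-fold, from 10.97 ± 0.47 (SD, n = 8) to 9.49 ± 0.58 (SD, n = 7), and its outer ranges did not overlap. In each of these 3 probes the Columbia City fish reached into the levels of both neighbours.

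The largest difference of all belonged to a member near the end of the list. Rising rank 53 differed by 3.95 (log2) between the outer means, with an SE of 1.46. Its values formed a low and a high set of fish rather than steps. At Longview 5 of 7 fish were between 12.51 and 14.05 and the other 2 were at 5.93 and 5.94. At Skamania 1 of 8 fish was at 12.92 and the other 7 were between 4.53 and 7.98. At Columbia City 2 of 6 fish were at 11.33 and 12.77, and the other 4 between 5.62 and 8.70. Its site means therefore reflect how many fish of a site were in the high set.

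The brightest members differed in size of change. Rising rank 45, the brightest of all and the rising member with the smallest difference, ran from 17.04 to 17.45 at Skamania, from 17.17 to 17.65 at Columbia City and from 17.27 to 17.54 at Longview, a 1.11-fold difference of the outer means. Rising rank 35 rose 1.39-fold from a Skamania mean of 14.86. Falling rank 45, which was printed 10 times on each array, fell 2.14-fold from a Skamania mean of 16.72. The median SD between its 10 spots of an array was 0.056, against SDs between fish of 0.78, 1.02 and 0.93 at Skamania, Columbia City and Longview. Its outer ranges overlapped. Rising rank 21 was also printed 10 times, with a median spot SD of 0.121 and a highest of 0.460 on an array, against SDs between fish of 0.35, 0.25 and 0.26. Spots of 1 array thus differed less than fish at the median in both probes, by a wide margin only in the falling one.

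Few members separated the outer sites fish by fish. All Longview fish were above all Skamania fish in 3 of 54 rising members, where this held for 1.10% of the 11040 probes tested, and below them in 3 of 46 falling members, where the share was 0.0453%. The 6 were rising ranks 2, 3 and 7 and falling ranks 1, 3 and 6. The rule ranked probes on the outer sites, and the 11040 include dimmer probes that it left out. The shares are therefore only set side by side. For no member did the Columbia City range stand clear of either neighbour's range. Over all probes tested, the share clear of Skamania was 0.0453% in each direction, and the share clear of Columbia City was 0.217% higher and 0.109% lower at Longview.

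In a limma fit of the 3 site means, 12 members were called between Longview and Skamania at an adjusted p under 0.05, of which 8 of 54 rose and 4 of 46 fell. Over all probes tested 1.54% were called in either direction, with 1.39% higher and 0.154% lower at Longview. The rule ranked probes on this contrast, and the 11040 include dimmer probes that it left out. For these reasons the shares are only set side by side. LSS_UF_19564 and LSS_UF_23102 were among the 12, at limma adjusted p of 0.0150 and 0.0151. LSS_UF_23215 and LSS_UF_17123 were not, at limma adjusted p of 0.0787 and 0.0756. The count of 12 also depended on the filter on dim probes. By limma 0 members were called when a tested probe had to be well above background on 11 or on all 21 arrays. Among all probes tested, 4 and 1 were called under these filters, against 170 in the main fit. The drop was thus not confined to the members. At an unadjusted p under 0.05 in the fit of 11040 probes, 95 members passed against 11.7% of all probes, with 50 of 54 rising (7.43% higher over all) and 45 of 46 falling (4.27% lower). The count of 12 became 5 without Longview replicate 1 or 4 or without Skamania replicate 8. It became 6 without Longview replicate 3 or 7 or without Skamania replicate 1 or 2, and 7 without Skamania replicate 5. Over all 21 fits that each left out 1 fish, the count of members called ran from 5 to 15. Among all probes tested, 118 to 223 were called in these fits, against 170 with all fish. Between neighbouring sites 0 of 11040 probes were called by limma, so 0 members were. An unadjusted p under 0.05 was found for 11 members between Columbia City and Skamania, against 7.12% of all probes tested, with 7 of 54 rising (4.20% higher over all) and 4 of 46 falling (2.92% lower). Between Longview and Columbia City it was found for 5 members, against 9.62%, with 3 rising (6.07% higher over all) and 2 falling (3.55% lower). These comparisons share fish, and the rule fixed the place of the Columbia City mean.

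Each fish was then placed over the members. For a fish, the difference from each probe's Skamania mean was taken and the median over probes was found. Over the rising probes this value ran from -0.22 over 0.04 to 0.29 among Skamania fish, from 0.11 over 0.34 to 0.50 among Columbia City fish and from 0.51 over 0.70 to 0.85 among Longview fish. Over the falling probes it ran from -0.32 over 0.00 to 0.14, from -0.46 over -0.40 to -0.26 and from -0.81 over -0.72 to -0.53. The order of the sites follows from how the probes were chosen. Single fish entered the site means that the rule used, so their places depend on the choice too. Skamania replicate 3 was the Skamania fish nearest to the lower sites in both sets, at 0.29 and -0.32.

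Members were also counted for each fish. These counts use the same site means, so their order over the sites follows from the choice of probes too. Skamania replicate 3 was nearer to the Longview mean than to the Skamania mean in 40 of the 100 members, against 6 to 32 in the other Skamania fish. Columbia City fish were nearer to the Longview mean in 35 to 61 members, with the lowest count in replicate 6 and the highest in replicates 3 and 5. Longview fish were so in 70 to 90 members, with the lowest count in replicate 2. The Skamania fish with the most such members, replicates 3, 4 and 6 with 40, 32 and 20, also had LSS_UF_10838 at 5.75, 7.54 and 5.07, against 16.90 to 17.20 in the other 5. They further had the largest log2 75th percentiles of the processed signal at that site, 9.53, 9.98 and 9.17 against 8.09 to 8.78. At the other sites the picture was mixed. Columbia City replicates 3 and 5, with LSS_UF_10838 at 5.35 and 5.36, had 61 such members each. Columbia City replicate 4, with LSS_UF_10838 at 3.51 and the largest 75th percentile there, 8.93, had 42. Longview replicates 3 and 7, with 75th percentiles of 9.45 and 9.56, had 90 each, and replicate 6, with the smallest, 8.27, had 85. The part of either measure in these counts was not tested. Without Skamania replicate 3 the median difference between the outer sites was 0.71 for the rising and -0.83 for the falling probes.

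The rule fixed the middle place of the Columbia City mean, and single Columbia City fish were mostly outside the middle band. Of the 324 values of Columbia City fish in rising members, 57 (17.6%) lay in the middle band between the outer means, 138 (42.6%) lay on the Skamania side of it and 129 (39.8%) on the Longview side. In falling members 68 of 275 values (24.7%) lay in the middle band, with 96 (34.9%) on the Skamania side and 111 (40.4%) on the Longview side. In all 54 rising and 45 of 46 falling members at least 1 Columbia City fish lay on each side of the middle band. In 26 members no Columbia City fish lay in it, and in no member did all of them. The band is narrow beside the spread of the fish. It is 1 of 3 equal parts of the outer difference, whose median was 0.64 in rising and -0.77 in falling members. The median SD of Columbia City fish was 0.46 and 0.42. Fish centred on so narrow a band would often fall outside it, so these shares do not show separate sets of fish. The shares were not taken over other probes. The SD of Columbia City fish, which the rule did not use, was a median of 1.18 times the pooled SD of the outer sites in rising members and 1.08 times in falling members, against 0.89 times over the eligible probes. The pooled SD entered the t used for ranking, so this ratio is a description too.

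The count of probes with a site in the middle place was also taken for the other sites. With Skamania as the middle site 811 of the 5997 eligible probes (13.5%) lay in the middle band, with Longview 695 (11.6%) and with Columbia City 655 (10.9%). Among probes with an absolute t over 3 between the outer sites, the middle site was in the middle band for 55 of 161 (34.2%) with Columbia City in the middle, for 56 of 135 (41.5%) with Skamania and for 34 of 116 (29.3%) with Longview. Columbia City thus had the lowest of the 3 shares over all eligible probes and the middle one among those with a t over 3. The 100th largest t in size was 2.44, 2.56 and 2.42 in these 3 orders. The 3 orders share the same fish, and no test was made between them.

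Every slide held fish of all sites: 3 Skamania, 1 Columbia City and 2 Longview fish on slide 1, 2, 3 and 3 on slide 2, and 3, 2 and 2 on slide 3. The direction between the outer sites was the same as overall within slide 1 in 99 of the 100 members, within slide 2 in 95 and within slide 3 in 99. The median Longview minus Skamania difference within slides 1, 2 and 3 was 0.74, 0.60 and 0.68 for rising probes and -0.66, -0.66 and -0.74 for falling probes. All these values come from the fish that chose the probes. The middle place was less steady. Columbia City lay between the outer means in 46 members within slide 1, where it had 1 fish, in 71 within slide 2 and in 72 within slide 3, and in 25 members it did so within every slide. The median Columbia City minus Skamania difference of rising probes was 0.49, 0.19 and 0.36 within the slides, and that of falling probes was -0.52, -0.30 and -0.40.

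Sites were compared in 5 array measures by exact permutation, two-sided, with p-values adjusted over 15 comparisons, and none passed. The rule itself used 2 of them, the flag for signal well above background and LSS_UF_10838. The measure nearest to a difference was the number of probes well above background, at 9655 ± 843 (SD, n = 8) on Skamania arrays, 9695 ± 714 (SD, n = 6) on Columbia City arrays and 10599.9 ± 832 (SD, n = 7) on Longview arrays (Longview minus Skamania, exact permutation p = 0.0503, adjusted p = 0.455). The log2 75th percentile of the processed signal had a Skamania mean of 8.89 ± 0.63 (SD, n = 8), a Columbia City mean of 8.58 ± 0.19 (SD, n = 6) and a Longview mean of 8.97 ± 0.48 (SD, n = 7). The part of either in the graded levels was not tested. LSS_UF_10838 ranged from 5.07 to 17.20 at Skamania, a range that overlapped those of both other sites. Members correlated with it by -0.60 to 0.58, within the bound the rule set.

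With site means removed, most pairs of members were weakly correlated between fish. The median Pearson r over the 21 fish was 0.13 between rising probes, 0.05 between falling probes and -0.08 between a rising and a falling probe, against 0.0003 over all pairs of eligible probes. An r over 0.6 was found in 2.31% of rising pairs, 2.13% of falling pairs, 0.52% of mixed pairs and 1.72% of eligible pairs. An r under -0.6 was found in 0.21%, 0.39%, 2.21% and 1.49% of them. Probes of 1 fish share an array, so these values are a description. The closest pair was falling ranks 1 and 2 with r = 0.97, followed by rising ranks 9 and 25 with 0.95 and rising ranks 5 and 11 with 0.94. Across the sets, falling rank 1 and rising rank 10 ran opposite to each other with r = -0.82. Among all bright probes, those most like LSS_UF_19564 had r = 0.83, 0.80 and 0.76, and none of these 3 was a member. Besides falling rank 2, the probes most like LSS_UF_17123 had r = 0.77 and 0.74 and were no members.

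The names of the sequences set the members little apart from other bright probes. Of the 100 members, 94 carried the name of an assembly contig and 5 that of a single read, against 93.4% and 5.64% of eligible probes. The 94 came from 92 assembly groups, so few members shared a group name. Whether members of different groups measure 1 transcript was not tested. The 1 group with several members had falling ranks 8, 23 and 33, with differences of -1.12, -0.44 and -0.90 between the outer sites. For these 3 and 4 other members, another bright probe came from the same assembly group. The 4 other members gave 5 pairs, all with the same sign of the difference and with r from -0.26 to 0.32 over 21 fish. The paired probes differed by -0.72, -0.04, 0.45, 0.47 and -0.10 between the outer sites. In none of these paired probes did the Columbia City mean lie in the middle band. The 3 members of the large group gave 186 pairs, in which each was set against mostly the same probes, and 99 of these pairs had the same sign. Of the members, 2 were printed 10 times and 1 lacked a value in 1 fish.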

How the data were processed

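Per the labels' protocols, DNase-treated liver RNA of 1 fish was labelled with Cy3 and hybridised to a 1-colour Agilent array. Per the file headers the scans were read with Feature Extraction 10.1.1.1, and per the submitters' processing notes with version 9.1. The scanner files deposited by the authors give linear intensity per spot, with flags. A further deposited table gives log2 values per probe and fish. Its columns differed by at most 0.000242 at 99 percentiles and correlated by at least 0.9999 with quantile-normalized log2 processed signals, and 117 of its values are missing. It was used for all levels and fits, since the members were chosen on it. Such a table equalises arrays, so a shift of all probes cannot show.

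A probe counted as well above background on an array if any of its spots was. Means left out missing values. The 11040 probes with a signal well above background on 6 or more of the 21 arrays were fitted with limma (version 3.58.1, R version 4.3.3) to site means of all 21 fish, with two-sided tests and Benjamini-Hochberg adjustment over all probes. The fit was checked on simulated data. Exact permutation tests used scipy 1.17.1. Slide and scan are one factor.

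The members, lists and tests were chosen with earlier results of these data known. The members described singly were, among rising and among falling probes, the 8 with the largest t, the 3 with the largest difference, the 2 brightest and the 2 with the fewest fish pairs out of order, and the last 3 members; the text gives a selection of these. Gene lists and cell type markers written down for the work could not be used without gene names. Alternatives covered scaling, background correction, filters, slide or replicate number as a block, array weights, thresholds, the bounds and ranking of the rule, and leaving out each fish. The number of arrays limits the precision.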

Additional observations from a re-analysis of the deposited data

Results flagged for a closer look

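Groups of values were formed by site from the members described singly, the array measures and the fish medians. Of 96 such groups, 6 held a fish far from the others of its site. Chance gives about 1 in 20, so the count was near the chance share. The groups share the same fish and are not independent. Skamania replicate 3 accounted for 3 of them: falling rank 16 was at 10.58 against 12.49 to 13.75 in the other Skamania fish, falling rank 45 at 15.03 against 16.39 to 17.60, and rising rank 53 at 12.92 against 4.53 to 7.98. Seen from the other Skamania fish, each of these values lay past the Longview mean and inside the range of the Longview fish. Longview replicate 2 stood at 7.36 for rising rank 8, against 9.19 to 9.99 in the other Longview fish, and at 16.04 for rising rank 35, against 15.04 to 15.35. Longview replicate 6 stood at 6.95 for falling rank 4, against 7.99 to 8.53.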

How the results depend on the processing

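Direction was stable and membership was not. The rule chose the members for a large t between the outer sites in these same fish, so their kept direction is only a description. All 54 rising and 46 falling members kept their direction under scaling to the 75th percentile or the median and under normexp, and no value of a member described singly reversed under the alternatives run for it. With 21 fits that each left out 1 fish, the median difference ran from 0.62 to 0.72 for rising and from -0.83 to -0.70 for falling members. Chosen anew in these fits, the list held 57 to 81 of the 100 members, with 50 to 61 rising probes; it held 57 without Longview replicate 2, 61, 62 and 66 without Columbia City replicate 5, 3 and 4, and 63 without Longview replicate 5, and 5 members were in every list. It held 57 with scaling to the median, 59 with a replicate block, 60 with the Columbia City mean held between 0.4 and 0.6 of the way, 47 when ranked by log2 difference, 56 when a probe had to be well above background on 11 arrays rather than 21, and 11 with no such filter, where 92 of the 100 rose. Members called numbered 5 to 15 without 1 fish, 1 with normexp, 4 with a replicate block, 30 with array weights, 26 and 0 at adjusted p under 0.10 and 0.01, and 0 with filters of at least 11 or all 21 arrays. Of all probes tested, 170 were called, and 118 to 223 without 1 fish. That count was 313 and 295 with the 75th percentile and the median, 13 with normexp and 126 with a replicate block. It was 4 and 1 with the filters of 11 and 21 arrays, 273 with array weights, and 270 and 83 at the other thresholds. The stricter filters test fewer probes, and the cause of any of these changes was not tested. Fish of equal replicate number were not more alike at the median than other pairs. Of 19 same-numbered pairs 7 had a correlation of deviations over 0.1, with a median of -0.13 against -0.01 in other pairs. Of 21 fish, 3 correlated best with one of their own number. No chance level was taken for these values. The rule kept probes well above background on all arrays, and the part of signal strength in these changes was not tested.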

Other observations

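Probe numbers that follow each other sometimes marked near-identical profiles. Of the 3768 pairs of bright probes with consecutive numbers, 67 had an r over 0.9 after site means were removed, and the median r was 0.10. The members held 6 such pairs, and in 3 of them r was over 0.9: falling ranks 1 and 2, rising ranks 9 and 25, and rising ranks 5 and 11. Whether the paired probes measure 1 transcript was not tested.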
